A study of Mus musculus with 8 samples.

Results

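The circadian clock genes are 10 mouse genes that form the transcriptional loops of the daily clock, namely Arntl, Clock, Per1, Per2, Per3, Cry1, Cry2, Nr1d1, Nr1d2 and Dbp. They were found in the count table by the Ensembl identifiers that GENCODE M21 pairs with these symbols, 10 of 56691 identifiers, and all 10 passed the filter on low counts that left 15755 genes for testing. RNA came from tumours of MC38 cells, a mouse colon adenocarcinoma line, grown in C57BL/6J mice. 4 libraries were from mice given C26, a compound known here only by its code, at 10 mg/kg on alternate days over 2 weeks. 4 libraries were from control mice with the same tumours, and what the control mice received is not given in the sources used here. The labels do not state that each library came from a separate animal, so the p-values measure the spread between these libraries, and they give no time of day for tissue collection.

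In the clock, CLOCK and BMAL1 (the product of Arntl) bind E-box elements and switch on the Per and Cry genes, whose proteins return to the nucleus and repress CLOCK and BMAL1. The nuclear receptors REV-ERB alpha and beta, the products of Nr1d1 and Nr1d2, are induced by the same pair and repress Arntl through ROR elements. DBP, another E-box target, activates genes with D-box elements, a step that NFIL3 opposes. In many mouse tissues Arntl therefore peaks at a time of day when Nr1d1, Dbp and the Per genes are low, and a single tissue sample holds 1 point of that cycle.

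Letter matches to the elements named above are shown for 4 clock genes and for Ciart. Ciart encodes a repressor of CLOCK and BMAL1, and its transcript passed the test. Binding to these matches was not tested. Sequences are RefSeq promoters on GRCm38.p6, written 5′ to 3′ on the gene's strand, with matches to the motifs in capitals. Each stretch ends before the RefSeq start and holds 0 bases of a GENCODE exon. The Arntl stretch (chr7:113207245-113207310, plus strand) holds 2 matches to the loosely spelled ROR motif (TNGGTCA), namely TTGGTCA and TCGGTCA. A further match, TAGGTCA, lay at bases 31 to 37 from the start of another Arntl promoter, outside this stretch. The Per1 stretch (chr11:69098763-69098808, plus strand) holds 1 E-box. The Per3 stretch (chr4:151044757-151044890, minus strand) holds 2 D-boxes followed by 1 match to the ROR motif on the other strand, TGACCAA. The Cry1 stretch (chr10:85185089-85185134, minus strand) holds 1 E-box and the Ciart stretch (chr3:95882252-95882364, minus strand) 3.
Arntl: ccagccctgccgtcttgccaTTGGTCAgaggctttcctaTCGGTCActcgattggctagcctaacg
Per1: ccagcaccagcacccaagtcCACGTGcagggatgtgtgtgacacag
Per3: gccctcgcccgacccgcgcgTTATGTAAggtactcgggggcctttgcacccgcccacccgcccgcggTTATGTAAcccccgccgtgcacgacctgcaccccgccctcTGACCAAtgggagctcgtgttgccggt
Cry1: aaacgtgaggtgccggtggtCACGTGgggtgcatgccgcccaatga
Ciart: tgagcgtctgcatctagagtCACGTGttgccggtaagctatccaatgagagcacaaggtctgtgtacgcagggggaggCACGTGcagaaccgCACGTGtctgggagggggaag

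Motifs were searched on both strands from 250 bases before to 50 bases after each start, in 13 RefSeq promoters of 9 of the 10 genes, all but Per2. The E-box was spelled CACGTG, the D-box TTANGTAA, the ROR element TNGGTCA and the cAMP response element TGACGTCA, and no match overlapped another. A gene was counted if any of its promoters held a match, whereas the shares over all promoters are per promoter, so the units differ. An E-box was found in 2 genes, Per1 and Cry1, against 7.15% of all 32851 promoters. A D-box was found in Per3 alone of the 9 genes, against 2.32% of all promoters. A match to the ROR motif was found in Arntl, Per3 and Cry2, against 11%. The cAMP response element was in 0 of the 9 genes, against 1.79% of promoters, and 4 genes (Clock, Nr1d1, Nr1d2 and Dbp) held no match in these windows.

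Of the 10 clock genes, 1 rose in C26 tumours and 0 fell in edgeR's quasi-likelihood test across all genes, at an adjusted p under 0.05. Over all 15755 genes 7.76% passed that threshold, 3.64% higher and 4.12% lower in C26, so the share among the clock genes is near the background. The gene that rose was Per2. The median log2 fold change of the 10 genes was 0.04, against 0.01 over all genes tested. Groups that did not overlap were seen for Per2 and Cry2, 2 of 10, against 16.1% of all genes (7.91% with C26 above, as in Per2, and 8.14% with C26 below, as in Cry2). Total counts were 17075176 to 21517425 per library, and a clock gene rested on 71 (the lowest, for Dbp) to 2152 reads (the highest, for Per1) in a library.

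**Figure D1:**
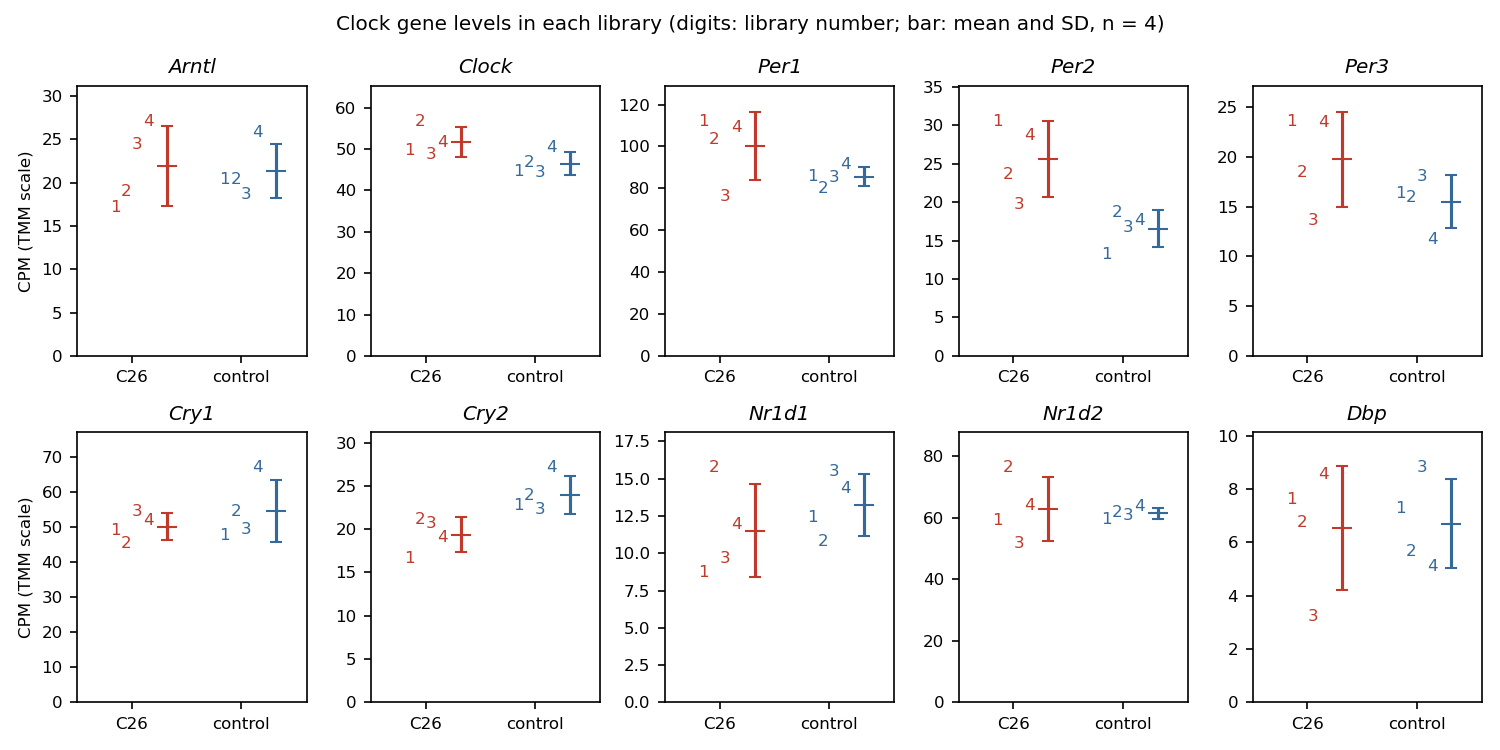
Level of each clock gene in CPM (y axis, from 0) in the 4 C26 and the 4 control libraries, with digits for library numbers and a bar for the mean and SD. The groups are separate for Per2 (19.7 CPM and above in C26, 18.7 CPM and below in control) and for Cry2 (21.1 CPM and below in C26, 22.2 CPM and above in control).

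Levels are CPM, counts scaled to a common library size with edgeR's TMM factors. Tumour tissue holds several cell types, and a lower level in such a sample cannot tell fewer cells that carry a transcript from less of it per cell.

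Among the Per genes, which encode the repressors that set the length of the cycle with the CRY proteins, Per2 (chromosome 1, 91415982 to 91459324) had 30.5, 23.6, 19.7 and 28.7 CPM in C26 libraries 1 to 4, against 13.2, 18.7, 16.8 and 17.6 CPM in control libraries 1 to 4. The lowest C26 library was above the highest control library by a small margin. Per2 averaged 25.6 ± 4.92 CPM in C26 and 16.5 ± 2.38 CPM in control tumours (SD, n = 4 each), 1.55-fold higher, or 0.63 ± 0.139 as log2 with its SE (edgeR adjusted p = 0.0147). The call held without any single library, with log2 fold changes of 0.53 (without control library 1) to 0.74 (without C26 library 3). It was lost once transcript length and GC content were corrected per library, at 0.55 (edgeR adjusted p = 0.0541), and with a covariate for skeletal muscle, at 0.76 (edgeR adjusted p = 0.0993, SE 0.205).

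Per1, which also responds quickly to cAMP and glucocorticoid, had 112, 103, 76.3 and 109 CPM in C26 libraries, against 85.9, 79.9, 85.2 and 91.3 CPM in control libraries. 3 C26 libraries stood above every control library, and C26 library 3 stood below them all. The log2 fold change was 0.23 ± 0.101 and did not pass (edgeR adjusted p = 0.173). Without C26 library 3 it was 0.34 and passed (edgeR adjusted p = 0.02).

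Per3, which is dispensable for rhythms in mice, had 23.6, 18.5, 13.6 and 23.4 CPM in C26 libraries, against 16.4, 15.9, 18.0 and 11.7 CPM in control libraries. 3 C26 libraries were again above every control library, with C26 library 3 inside the control range. The log2 fold change was 0.35 ± 0.173 and did not pass (edgeR adjusted p = 0.23). With C26 libraries 2 and 3 both left out, which were the lowest C26 libraries for the 3 Per genes and the highest for Cry2, Per1, Per2 and Per3 were higher in C26 and Cry2 was lower, 4 of the 10 genes, at log2 fold changes of 0.37, 0.84, 0.60 and -0.43 and edgeR adjusted p of 0.0166, 0.00397, 0.0263 and 0.0497. In that fit 5.5% of all genes passed (897 of 16310). Larger differences for these 4 genes follow from which libraries were left out, so their calls in that fit add no support.

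The Cry genes encode cryptochromes, the strongest direct repressors of CLOCK and BMAL1. Cry2 (chromosome 2, 92403646 to 92434043) had 16.6, 21.1, 20.6 and 19.0 CPM in C26 libraries, against 22.7, 23.9, 22.2 and 27.1 CPM in control libraries, and the groups did not overlap. Its log2 fold change was -0.31 ± 0.101 and did not pass in edgeR (adjusted p = 0.0701), whereas DESeq2 gave -0.31 with an adjusted p = 0.0438. Cry1 had 49.0, 45.3, 54.4 and 52.1 CPM in C26 libraries, against 47.5, 54.5, 49.4 and 66.99 CPM in control libraries. The Cry1 groups overlapped, and control library 4 was the highest (log2 fold change -0.12 ± 0.101, edgeR adjusted p = 0.49).

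Neither gene of the activating pair passed. Arntl (chromosome 7, 113207465 to 113314126) had 17.2, 19.0, 24.4 and 27.1 CPM in C26 libraries, against 20.3, 20.4, 18.7 and 25.8 CPM in control libraries. The C26 libraries lay on both sides of the control range, and the log2 fold change was 0.04 ± 0.141 (edgeR adjusted p = 0.874). Clock had 49.7, 56.7, 48.6 and 51.6 CPM in C26 libraries, against 44.6, 46.7, 44.3 and 50.3 CPM in control libraries. Control library 4 reached into the C26 range, and the log2 fold change was 0.15 ± 0.0762 (edgeR adjusted p = 0.219). With offsets for length and GC content Clock stood at -0.07, and it has the longest transcript of the 10 genes, 9744 bases with 40.9% GC.

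The REV-ERB genes also overlapped between groups. Nr1d2 had 59.1, 76.2, 51.5 and 64.0 CPM in C26 libraries, against 59.4, 61.7, 60.8 and 63.7 CPM in control libraries. The C26 libraries were more spread than the control libraries, with an SD of 10.4 CPM in C26 and 1.79 CPM in control, around means of 62.7 CPM in C26 and 61.4 CPM in control (log2 fold change 0.03 ± 0.0969, edgeR adjusted p = 0.876). That sign turned to -0.033 with limma-voom and -0.11 with the muscle covariate. Nr1d1 had 8.71, 15.7, 9.62 and 11.95 CPM in C26 libraries, against 12.4, 10.8, 15.5 and 14.3 CPM in control libraries, with a log2 fold change of -0.20 ± 0.171 (edgeR adjusted p = 0.49). Exons of Nr1d1 share 8.5% of their length with exons of Thra on the opposite strand, and since the strand setting of the counting is not given, reads from that stretch cannot be assigned.

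Dbp, the output regulator, had 7.60, 6.75, 3.24 and 8.56 CPM in C26 libraries, against 7.26, 5.66, 8.80 and 5.09 CPM in control libraries. Each control library lay inside the C26 range except control library 3, just above it, and C26 library 3 was the lowest of all 8. The log2 fold change was -0.05 ± 0.265 (edgeR adjusted p = 0.934), and without C26 library 3 it was 0.18. Dbp had the largest SE of the 10 genes, and 539 bases of its exons, 18.0%, are shared with Sphk2 on the opposite strand.

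**Figure D2:**
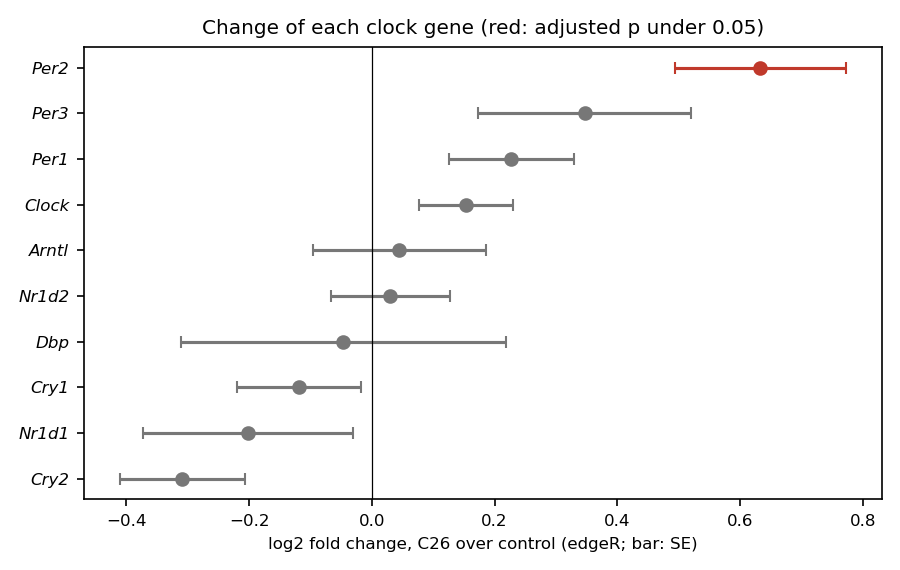
Log2 fold change of each clock gene, C26 over control, from edgeR (x axis, bar: SE), in order of size (y axis). Per2 at 0.63 is the gene past the threshold and Cry2 at -0.31 lies at the other end.

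To compare genes with each other, counts were divided by transcript length and scaled to the same total in each library (TPM). By mean TPM over 8 libraries the order was Per1 (38.1), Cry1 (33.0), Nr1d2 (25.4), Arntl (13.9), Cry2 (10.3), Clock (9.65), Nr1d1 (8.65), Per2 (6.98), Dbp (6.87) and Per3 (5.65). Neighbours in this order overlapped in range over the libraries, except Nr1d2 and Arntl, whose lowest and highest libraries were 22.2 and 18.5 TPM. Compared within each library, Nr1d2 was above Arntl, and Arntl above Cry2, in all 8 libraries. Cry1 was above Nr1d2, and Dbp above Per3, in 7 libraries. The remaining neighbours kept their order in 5 or 6 libraries. With the union of all exons as length, Per1 (48.0 TPM), Cry1 (45.3 TPM) and Nr1d2 (33.3 TPM) were still highest, while Arntl had 8.33 TPM and Per2 had 10.5 TPM.

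C26 library 3 was the lowest C26 library for Per1, Per2, Per3, Dbp and Nr1d2, at -0.38, -0.36, -0.50, -0.90 and -0.27 from the C26 mean on the log2 scale. The same library was above the C26 mean for Arntl (0.18), Cry1 (0.12) and Cry2 (0.10). Control library 4 was the lowest control library for Per3 (-0.38) and Dbp (-0.36). It was the highest for 6 genes, Arntl (0.29), Cry1 (0.31), Cry2 (0.18), Clock (0.12), Per1 (0.10) and Nr1d2 (0.05). For Nr1d1 (0.13) and Per2 (0.10) it was above the control mean.

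**Figure D3:**
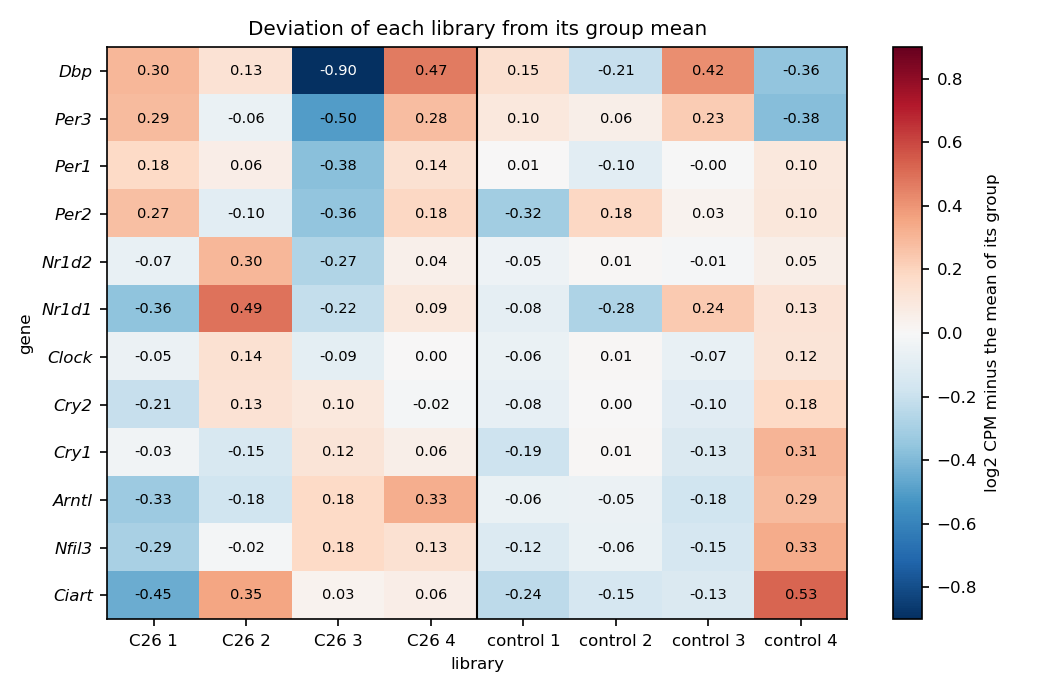
Log2 CPM of each gene (rows) in each library (columns) minus the mean of its group, in colour and digits. C26 library 3 is low for Dbp (-0.90) and the Per genes, and control library 4 is low for Dbp and Per3 and high for Arntl, Cry1, Nfil3 and Ciart (0.53).

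Over the 8 libraries, with group means removed, Per3 and Dbp had Pearson's r of 0.92 (exact permutation within groups, p = 0.00347) and Spearman's rho of 0.90 (exact permutation p = 0.0122). Without the 2 libraries farthest from the median of Per3, r was 0.70. Clock and Nr1d2 had r of 0.83 (exact permutation p = 0.00347) and rho of 0.88 (exact permutation p = 0.00694), and r of 0.74 without the 2 farthest libraries. Per3 and Cry2 ran opposite, with r of -0.81 (exact permutation p = 0.033), rho of -0.86 (exact permutation p = 0.0139) and r of -0.80 without the 2 farthest. After adjustment over the 45 pairs of clock genes 0 pairs passed (4 had an unadjusted exact permutation p under 0.05 by Pearson's r), and the Per3 and Dbp pair had an adjusted permutation p of 0.0781 by r and 0.208 by rho.

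The log2 ratio of Dbp to Arntl, a pair with opposite phases in many tissues, was -1.16, -1.48, -2.88 and -1.65 in C26 libraries, against -1.47, -1.83, -1.08 and -2.32 in control libraries. The ratio of Per2 to Arntl was 0.83, 0.31, -0.31 and 0.08 in C26 libraries, against -0.62, -0.13, -0.16 and -0.55 in control libraries. Both ratios overlapped between groups, as did those of Per1, Per3, Nr1d1 and Nr1d2 to Arntl, and C26 library 3 was the lowest C26 library in all 6. All 6 ratios share Arntl, for which that library was above the C26 mean, so they are not 6 separate readings.

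Genes with the same pattern as Arntl and Dbp were sought among 10371 other tested genes with a mean of at least 5 CPM, by Pearson's r over the 8 libraries with group means removed. Nearest to Arntl were Epdr1 (r = 0.996), Gpnmb (0.991), Ikbkg (0.984), Copg2 (0.984) and Ccdc117 (0.977), the highest of 84 genes with r above 0.9. Nearest to Dbp were Pex13 (0.984), Tshz3 (0.954), Dcn (0.948), Usp48 (0.946) and Il15 (0.940), of 18 such genes. These are the top of a search over few libraries and are given as a description.

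Dcn, which encodes the matrix proteoglycan decorin, is on the list of 12 fibroblast genes, all of which were tested. Their summed level was 7896, 5758, 5667 and 7763 CPM in C26 libraries, against 4791, 4483, 5201 and 3349 CPM in control libraries. The groups did not overlap, and 1 of the 12 genes (Postn) rose. Most of the sum was Col3a1, Col1a1 and Col1a2, so it does not measure cell number. Their means were 3645, 1330 and 790 CPM in C26 and 2282, 734 and 632 CPM in control. Taken singly, 3 of the 12 genes (Col1a1, Col3a1 and Postn) had groups that did not overlap, against 16.1% of all genes. The mean log2 level of the list was 6.44 to 6.73 in C26 and 5.73 to 6.36 in control. Within each group the library with the lowest fibroblast sum, C26 library 3 and control library 4, was also the lowest for Dbp and Per3. With group means removed, the mean log2 level of the list had r of 0.80 with Per3 (exact permutation p = 0.00174, the smallest possible, and rho of 0.86, exact permutation p = 0.00521) and of 0.73 without the 2 farthest libraries. The list had r of -0.90 with Cry2 (exact permutation p = 0.00347, and rho of -0.95, exact permutation p = 0.00347) and of -0.91 without the 2 farthest. With Dbp it had r of 0.68 (exact permutation p = 0.026, adjusted 0.516) and r of 0.65 without the 2 farthest. Spearman's rho with Dbp was 0.81 (exact permutation p = 0.0295, adjusted 0.506). The list holds Dcn, which was found by its likeness to Dbp, so the correlation with Dbp is in part built in. With Per2 the list had r of 0.06 (exact permutation p = 0.878) and with Per1 r of 0.19 (exact permutation p = 0.575). Over 70 pairs of clock genes and marker lists, 6 of them with an unadjusted permutation p under 0.05 by r, 0 passed adjustment (the Per3 and Cry2 pairs had an adjusted permutation p of 0.122 by r and 0.182 by rho).

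**Figure D4:**
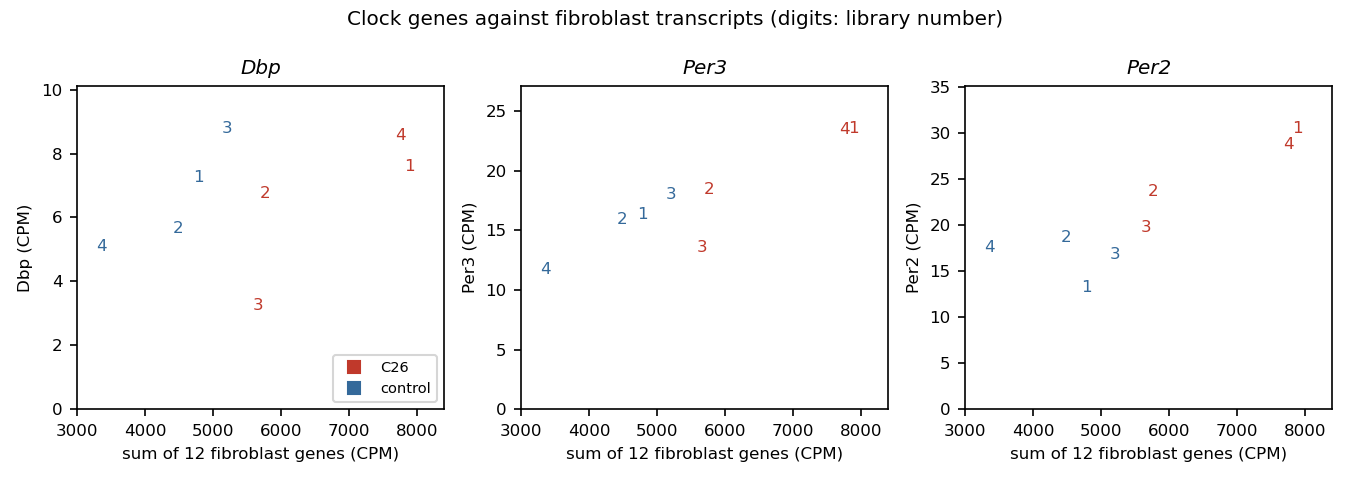
CPM of Dbp, Per3 and Per2 (y axes, from 0) against the summed CPM of 12 fibroblast genes (x axes) in each library, with digits for library numbers. The C26 libraries lie at 5667 CPM and above on the x axis and the control libraries at 5201 CPM and below. Most of that sum is Col3a1, Col1a1 and Col1a2.

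With the fibroblast level as a covariate, a setting chosen after seeing the data, Per2 had a log2 fold change of 0.58 with an SE of 0.235 (edgeR adjusted p = 0.158). There 0 of the 10 genes passed in edgeR, against 4.81% of all genes. In that fit Cry2 stood at -0.04, Per3 at -0.20 and Dbp at -0.74 (edgeR adjusted p = 0.17 for Dbp), against -0.31, 0.35 and -0.05 as reported. The fibroblast level differs between the groups, so in that fit the level and the treatment cannot be told apart.

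Marker genes of other cell types were uneven between libraries too. The 15 skeletal muscle genes, 13 of them tested, summed to 63.2, 814, 182 and 39.6 CPM in C26 libraries, against 17.7, 62.4, 17.1 and 18.7 CPM in control libraries. Their groups overlapped and 1 of the 13 genes (Myh1) rose. Per2 was highest in C26 libraries 1 and 4, where the muscle sum was lowest among C26 libraries. C26 library 2, with the highest muscle sum, had more Per2 (23.6 CPM) than C26 library 3 (19.7 CPM). With group means removed, the muscle list had r of -0.23 with Per2 (exact permutation p = 0.681, rho of -0.33, exact permutation p = 0.503). Per2 stood at 0.84 without C26 libraries 2 and 3, a rise that follows from leaving out the C26 libraries lowest for Per2. Of 10 endothelial genes 9 were tested and 1 rose (Tek), while 0 of 10 tested macrophage genes, 0 of 2 tested T cell genes and 0 of 3 tested adipocyte genes passed. Summed levels were 103 to 129 CPM in C26 and 68.2 to 118 CPM in control for 10 endothelial genes, and 676 to 987 CPM in C26 and 778 to 1111 CPM in control for the macrophage genes. They were 1.92 to 3.92 CPM in C26 and 3.46 to 5.78 CPM in control for 10 T cell genes, and 42.1 to 56.1 CPM in C26 and 39.0 to 52.9 CPM in control for 10 adipocyte genes. Most of the adipocyte sum was Fabp4, with means of 40.9 CPM in C26 and 42.5 CPM in control. Adipoq had means of 0.096 and 0.093 CPM, so the sum does not measure adipocyte number. Among these lists, with group means removed, the mean log2 level of the 3 tested adipocyte genes (Fabp4, Pparg and Lpl) had r of 0.79 with Per2 (exact permutation p = 0.0399, rho of 0.88, exact permutation p = 0.0174, r of 0.69 without the 2 farthest libraries). The macrophage list had r of -0.87 with Cry2 (exact permutation p = 0.0295, rho of -0.83, exact permutation p = 0.0382, r of -0.65 without the 2 farthest libraries). Neither passed adjustment over the 70 pairs (adjusted permutation p of 0.547 and 0.516 by r, and 0.405 and 0.506 by rho). Of 10 colon epithelial genes, Cdh1 and Lgals4 passed the low-count filter, the sum was 5.45 to 8.81 CPM in C26 and 7.41 to 10.1 CPM in control, and Cdx2 had 0 counts in every library, so defining markers of colon epithelium were close to absent in these MC38 tumours.

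Around the 10 genes, 26 other genes of the clock loops were listed and 23 were tested, of which 1 fell and 0 rose, with a median log2 fold change of 0.01. The gene that fell was Ciart, at 7.39, 12.9, 10.4 and 10.5 CPM in C26 libraries, against 14.0, 14.8, 15.02 and 23.8 CPM in control libraries. Every C26 library was below every control library, and control library 4 was far above the others. On the log2 scale the difference was -0.71 ± 0.19 with its SE (edgeR adjusted p = 0.0404). The call was lost without C26 library 1, 3 or 4 or control library 2, 3 or 4, with edgeR adjusted p of 0.0575 to 0.0958 over these and the fit without C26 libraries 2 and 3. It was also lost with the muscle covariate (-0.89, edgeR adjusted p = 0.187), the fibroblast covariate (-0.12, 0.766) and the offsets for length and GC (-0.67, 0.103).

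Nfil3, the D-box repressor, had 20.4, 24.6, 28.3 and 27.4 CPM in C26 libraries, against 28.2, 29.5, 27.7 and 38.7 CPM in control libraries (log2 fold change -0.30, edgeR adjusted p = 0.139). Of the relatives of Dbp, Hlf had a log2 fold change of 0.46 (edgeR adjusted p = 0.12) and Tef one of 0.12 (adjusted p = 0.396), and neither passed. Of the E-box repressors, Bhlhe40 stood at 62.2 ± 10.7 CPM in C26 and 68.9 ± 15.8 CPM in control, and Bhlhe41 at 40.4 ± 10.2 CPM in C26 and 44.7 ± 6.72 CPM in control (SD, n = 4 each, edgeR adjusted p of 0.665 and 0.635).

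The second BMAL gene, Arntl2, was at 58.8 ± 7.71 CPM in C26 and 52.3 ± 3.15 CPM in control (SD, n = 4 each, edgeR adjusted p = 0.259), and per length its mean over all libraries was 36.4 TPM, against 13.9 TPM for Arntl. Npas2, the close relative of Clock, had 0, 0.05, 0.14 and 0 CPM in C26 libraries, against 0.05, 0, 0 and 0.06 CPM in control libraries, and was not tested. Rorb and Rora, which encode activators of Arntl, had 2.85 and 0.592 TPM over all libraries (3.63 and 0.178 TPM with the union of exons as length), and neither passed (edgeR adjusted p of 0.295 and 0.689). Genes for kinases (Csnk1d, Csnk1e, Gsk3b), phosphatase subunits (Ppp1ca, Ppp1cb, Ppp1cc) and ubiquitin ligase subunits (Btrc, Fbxw11) that act on clock proteins did not pass.

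Of 26 listed genes known to oscillate with the clock or to be driven by it, 24 were tested and 1 rose, with a median of -0.03. This was Ppard, a nuclear receptor gene, at 38.4 ± 3.25 CPM in C26 and 30.6 ± 3.38 CPM in control (SD, n = 4 each, log2 fold change 0.33, edgeR adjusted p = 0.0427). Its call was lost without C26 library 1, 2 or 4 or control library 1, 3 or 4, with the replicate number as a block (0.33, edgeR adjusted p = 0.0591) and with limma-voom (0.29, adjusted p = 0.0518). It was lost too with the muscle covariate (0.34, edgeR adjusted p = 0.236) and the fibroblast covariate (0.13, edgeR adjusted p = 0.602). Wee1, a kinase gene of the cell cycle with E-boxes, had 43.6 ± 6.77 CPM in C26 and 34.7 ± 2.68 CPM in control and did not pass (edgeR adjusted p = 0.0583).

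Per1 is also a target of glucocorticoid and of CREB, so those target lists were counted. Of 15 glucocorticoid target genes 11 were tested and 1 fell, Mt1, a metallothionein gene that metals induce as well, at 146 ± 30.3 CPM in C26 and 254 ± 27.9 CPM in control (SD, n = 4 each, log2 fold change -0.80, edgeR adjusted p = 0.0101). Its call was lost with the muscle covariate (-0.46, edgeR adjusted p = 0.158) and the fibroblast covariate (-0.87, 0.101). The usual reporters of glucocorticoid action did not pass. Fkbp5 had 187 ± 29.9 CPM in C26 and 162 ± 19.6 CPM in control, and Tsc22d3 had 156 ± 27.3 CPM in C26 and 161 ± 3.56 CPM in control (edgeR adjusted p of 0.274 and 0.813), and C26 library 3 was the lowest library for Tsc22d3 (123 CPM).

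Of 13 genes on the CREB list, all tested, 1 rose, Creb1 itself, at 77.4 ± 3.18 CPM in C26 and 66.02 ± 3.4 CPM in control (log2 fold change 0.23, edgeR adjusted p = 0.0491). It stood at 0.01 with offsets for length and GC content and was lost without any 1 library other than C26 library 1. It was also lost with the replicate number as a block (0.23, edgeR adjusted p = 0.0695), RLE factors (adjusted p = 0.056), no low-count filter (0.0581), the muscle covariate (0.187) and the fibroblast covariate (0.102). Nr4a1, Fos and Sik1, quickly induced CREB targets, did not pass (edgeR adjusted p of 0.707, 0.624 and 0.414).

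**Figure D5:**
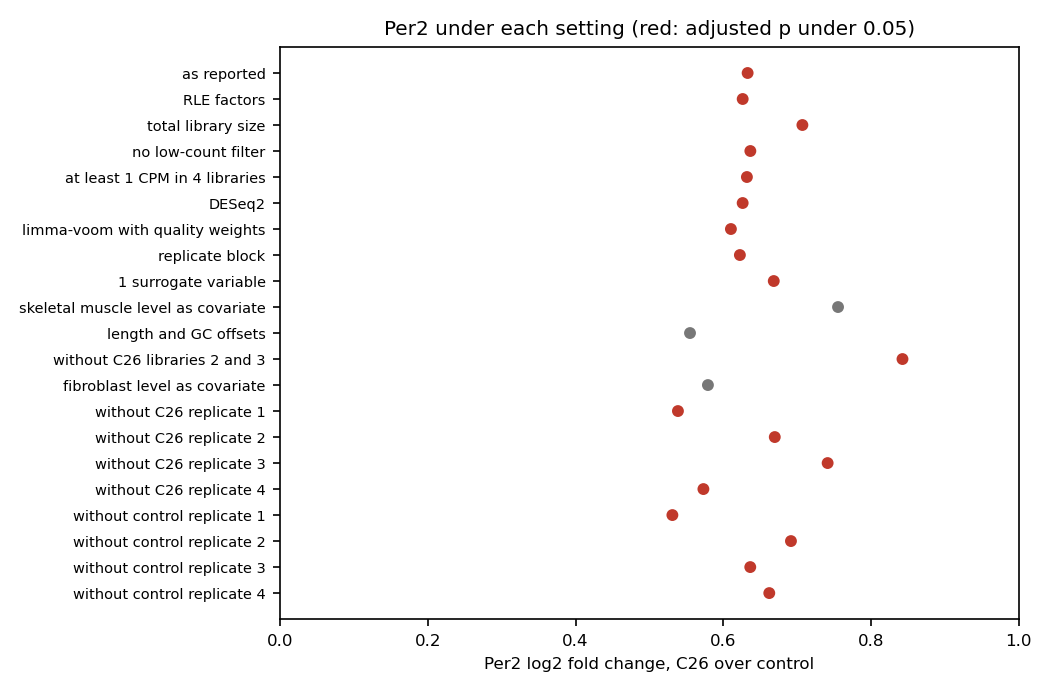
Log2 fold change of Per2, C26 over control (x axis), under the reported and 20 other settings (y axis), red where the adjusted p was under 0.05. All values lie between 0.53 and 0.84, and 3 settings (grey) miss the threshold.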

How the data were processed

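Messenger RNA was measured in 4 C26 and 4 control tumour libraries. The authors deposited whole-number raw counts per Ensembl gene. The submitters' processing notes name HISAT2 2.2.1, featureCounts 2.0.1, Trim Galore 0.6.7 and the mm10 build. Another chain (STAR, RSEM, Cutadapt and Picard) stands in the series' design text, and which of them made the table is not settled here. The strand setting is not given in the sources used here. Symbols and coordinates came from GENCODE M21 on GRCm38, the assembly mm10 names, for 52073 of 56691 identifiers, and promoters from RefSeq on GRCm38.p6.

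Genes passing edgeR 4.0.16 filterByExpr were tested with TMM factors and the quasi-likelihood test with robust estimation, group as the sole term, two-sided, with Benjamini-Hochberg adjustment over all genes (R 4.3.3). Log2 CPM used a prior count of 2. DESeq2 1.42.0, limma 3.58.1 and sva 3.50.0 gave alternatives. Correlations were tested by all 576 arrangements within groups. The test, checked on simulated counts for 15755 genes in this comparison, recovered 20.9% of 67 genes at 1.25-fold, 58.2% of 67 genes at 1.5-fold and 71.2% of 66 genes at 2-fold. Of its 103 calls 3 were false.

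Named genes were the 10 clock genes, the list genes past the threshold (up to 6 per list), a fixed set of clock and glucocorticoid genes, and the 5 genes most like Arntl and Dbp. Postn, Myh1, Tek, Fabp4, Adipoq, Pparg, Lpl, Wee1, Nr4a1, Fos, Sik1, Rorb and the kinase, phosphatase and ligase genes were named after their values were seen. Members and lists were chosen with earlier results of these data known. Some list genes are not reported here. The SE carries both counting error and spread between libraries. Dbp had the fewest reads and the largest SE of the 10 clock genes.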

Additional observations from a re-analysis of the deposited data

Results flagged for a closer look

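In 46 groups of 4 libraries, 4 had a library far from the others by Dixon's test, where chance flags about 1 in 20. Control library 4 stood high for Ciart (23.76 CPM) and for Nfil3 (38.68 CPM). C26 library 3 stood low for Tef (77.71 CPM), and control library 2 stood low for Tsc22d3 (155.6 CPM).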

How the results depend on the processing

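Per2 was higher in C26 in all 20 alternatives and past the threshold in 17. Values are log2 fold changes or counts of genes past the threshold, and the cause of each change was not tested. With RLE factors 0 CREB targets passed. With total library size 1949 genes (12.4%), 2 other clock-loop, 2 output and 2 glucocorticoid genes passed, and Dbp was 0.027 and Tsc22d3 0.028. Without a low-count filter 1948 of 32341 genes passed (6.02%), with 2 of the 10 clock genes (Per3 at 0.35), 2 other clock-loop and 4 output genes. With DESeq2 1813 genes passed (11.5%), with 2 of the 10 clock genes (Cry2 at -0.31), 4 output and 2 glucocorticoid genes. With limma-voom 9.68% of all genes passed, with 2 other clock-loop and 3 glucocorticoid genes, and Nr1d2 was -0.033. With the replicate number as a block Per2 was 0.62 (edgeR adjusted p = 0.0248), 1184 genes passed (7.52%), with 2 output and 3 glucocorticoid genes, and Ppard and Creb1 lost their calls. The correlation of same-numbered libraries was -0.02, 0.13, -0.02 and 0.09. C26 libraries 2 and 4 correlated best with their own number among control libraries, and C26 libraries 1 and 3 did not. So few values cannot decide whether same-numbered samples were paired, which the labels do not state. With 1 surrogate variable 2090 genes passed (13.3%), with 2 of the 10 clock genes (Cry2 at -0.36) and 7 output genes, and Nr1d2 was -0.012 and Dbp 0.054. With the muscle covariate 124 genes (0.787%) passed and 0 clock genes, 0 other clock-loop, 0 glucocorticoid and 0 CREB genes. Per2 was 0.76, Nr1d2 -0.11, Dbp 0.32, Bhlhe40 0.064, Bhlhe41 0.36 and Tsc22d3 0.18. With offsets for length and GC content 595 genes (3.78%) passed, of which 31.9% were higher against 46.9% as reported (78.7% with total library size, 68.5% with the muscle covariate). These held 0 clock genes, 2 output and 0 CREB genes, and Arntl was -0.0071, Clock -0.066, Per2 0.55, Nr1d2 -0.11 and Dbp 0.048. Without C26 libraries 2 and 3, 897 genes passed (5.5%), with 4 clock genes (Per1 at 0.37, Per3 at 0.60, Cry2 at -0.43, with Per2), 0 other clock-loop, 5 output, 2 glucocorticoid and 0 CREB genes, and Dbp was 0.26, Bhlhe41 0.11 and Tsc22d3 0.15. Those 2 libraries were the lowest C26 libraries for the Per genes and the highest for Cry2. With the fibroblast covariate, chosen after seeing the data, 758 genes passed (4.81%), and 0 clock, 0 other clock-loop, 0 output, 0 glucocorticoid and 0 CREB genes. Per2 was 0.58, Per3 -0.20, Cry1 0.18, Nfil3 0.087 and Tef -0.012. Leaving out 1 library at a time gave 643 to 1457 genes (4.03% to 9.1%), 1 to 2 clock genes, 0 to 1 other clock-loop, 0 to 2 output, 1 to 2 glucocorticoid and 0 to 1 CREB genes. Values were -0.073 to 0.15 for Arntl, 0.17 to 0.34 for Per1, -0.077 to 0.11 for Nr1d2, -0.21 to 0.18 for Dbp, -0.011 to 0.49 for Rora and -0.12 to 0.053 for Tsc22d3. Dbp had the fewest reads of the clock genes, 71 to 178 a library, and the largest SE, 0.265. Its C26 libraries also ranged from -0.90 (library 3) to 0.47 (library 4) around their mean on the log2 scale. How much of the SE comes from depth was not tested.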
